A study of Mus musculus with 6 samples.

Results

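Regions that appeared in all 3 pSmad2 peak lists of mouse embryonic stem cells are described here, 942 of the 13017 regions obtained when the lists were merged. The cells were of the E14 TG2A line, and pSmad2 is Smad2 after phosphorylation of its last serines by Activin or Nodal receptors. All cultures spent 6 h in 10 µM SB 431542 (SB), which blocks those receptor kinases, in media with 20% KSR (serum replacement) and no LIF. They then spent 18 h in Activin at 25 ng/ml, in DMSO, the solvent, at 1/5000, or again in 10 µM SB, so the DMSO cells had also seen SB. Each treatment gave 1 ChIP library and 1 input library of DNA without the antibody step, both from cells of the same passage and amplified by 18 PCR cycles. With 1 library a group no difference has a replicate check, and every test compares the tags of a pair of libraries and covers counting error only. In SB the receptors are blocked, so a list from SB cells serves as the low end of signaling. The paper reports that pSmad2 was lowered in SB, not absent, and describes sites bound mostly in SB. Regions that also stand in the SB list raise the question of which of them follow the signal at all.

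The members were chosen by the authors' peak calls, and a call was needed in every treatment. A region whose level was high in Activin but that had no listed peak in SB was thus left out. Each listed position was given an interval that fits the way its list was made, from 416 bp before to 416 bp after it in Activin, from 467 bp before it in DMSO, and from 1109 bp before it in SB. Intervals that shared 1 bp were joined, and a region was kept if all 3 lists contributed. The members held 1026 of the 5094 Activin peaks (20.1%), 1158 of the 7423 DMSO peaks (15.6%) and 1018 of the 4759 SB peaks (21.4%). Just inside the rule lay chr8:74268331-74270386 near Fcho1, joined by an overlap of 2 bp, and just outside it lay chr1:136534654-136536721 near Syt2, missed by a gap of 4 bp. All coordinates are on the mm9 assembly, and a member is named by the nearest start site of a protein-coding gene.

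Phosphorylated Smad2 joins Smad4 and reaches DNA together with partner factors, among them FoxH1. Smad proteins contact the short sequence CAGAC, while FoxH1 reads a motif written here as TGTNNATT. Nodal, its co-receptor Tdgf1 (Cripto) and its inhibitors Lefty1 and Lefty2 form a loop in which the pathway acts on its own genes. ChIP libraries also gather DNA that is easily sheared or recovered, such as open start sites, and DNA that the genome assembly holds in fewer copies than the cell.

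The members were not of one kind. A set of 64 consisted of short blocks where the same tags recurred, and these held more than the other 878 members together in every ChIP library. Another 228 members held a start site of a protein-coding gene, and of the remaining 650 most lay within 5 kb past the end of a gene or in an intron. Members near ribosomal protein and histone genes were frequent. By the test given below 26 of the 942 (2.76%) were called higher in Activin than in SB, against 6.69% of all merged regions. Among the 26 were members at Lefty1, Ski, Tdgf1 and Nodal. Another 188 members (19.96%) were called lower in Activin than in SB, against 12.5% of all merged regions.

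The sequences below are examples from these groups, printed from the mm9 assembly on the plus strand. The first 2 are blocks that hold most tags of a member with recurring tags, far from Samd9l (chr6:3151460-3151553) and near Pak3 (chrX:139917563-139917637). The next 4 are windows around the highest pileup of members with more tags in Activin, before Lefty1 (chr1:182863992-182864092), in the Ski intron (chr4:154564035-154564135), before Tdgf1 (chr9:110850051-110850151) and in the Nodal intron (chr10:60882000-60882100). The last 3 are from members past the end of a gene, at Eif1 (chr11:100183785-100183885), Sox2 (chr3:34552216-34552316) and Rps19 (chr7:25675685-25675785). Capitals mark CAGAC, TGTNNATT and their reverse complements GTCTG and AATNNACA.
Samd9l block: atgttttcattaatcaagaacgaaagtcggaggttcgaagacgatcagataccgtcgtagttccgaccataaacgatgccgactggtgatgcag
Pak3 block: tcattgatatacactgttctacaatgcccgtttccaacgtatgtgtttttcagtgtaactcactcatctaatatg
Lefty1: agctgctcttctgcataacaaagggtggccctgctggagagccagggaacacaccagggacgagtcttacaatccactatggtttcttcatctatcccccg
Ski intron: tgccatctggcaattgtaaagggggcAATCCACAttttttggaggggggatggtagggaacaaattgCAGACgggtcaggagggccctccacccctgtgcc
Tdgf1: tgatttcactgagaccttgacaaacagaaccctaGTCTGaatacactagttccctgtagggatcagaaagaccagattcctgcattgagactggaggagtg
Nodal intron: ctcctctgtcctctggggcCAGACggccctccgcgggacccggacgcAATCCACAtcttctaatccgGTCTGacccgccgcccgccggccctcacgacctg
Eif1: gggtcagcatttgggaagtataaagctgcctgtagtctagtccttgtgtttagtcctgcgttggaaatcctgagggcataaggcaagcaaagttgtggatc
Sox2: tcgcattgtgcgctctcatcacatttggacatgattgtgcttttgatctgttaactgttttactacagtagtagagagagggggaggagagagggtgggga
Rps19: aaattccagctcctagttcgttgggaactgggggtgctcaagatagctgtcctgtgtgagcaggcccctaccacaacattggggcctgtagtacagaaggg
The Ski and Nodal windows hold both marked motifs, and the Lefty1 window holds neither. Windows of other members past a gene end, such as those at Rpl3 and Fgf4, do hold CAGAC or its complement.

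Values for the 3 treatments are given below in the order Activin, DMSO, SB. Sequencing depth was 13148559, 12879960 and 9757735 tags for ChIP and 10516699 to 12708225 tags for input. A tag is a sequenced fragment end of 35 bp, and after extension to 200 bp its middle decided the region it was assigned to. A duplicate tag shares position and strand with another tag of its library, and duplicates made up 19.9% to 24.6% of the ChIP tags and 5.64% to 6.94% of the input tags.

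The members were strong entries of their lists. Their peaks had medians of 46, 35.5 and 47 listed tags in Activin, DMSO and SB, against 22, 15 and 24 for the other peaks of the same lists. A member held a median of 60, 69 and 53 ChIP tags, against 16, 19 and 16 input tags. Scaled by depth, the median ratio of ChIP to input was 3.42, 3.56 and 3.65, above the medians of 2.16, 2.51 and 2.16 for all merged regions. These ratios belong to the contrast the peaks were called on and are a description without a test. A ratio of at least 2 in all 3 treatments was found in 781 members, and a ratio below 1 in 2, 3 and 3 members.

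Together the members took 0.961%, 1.22% and 1.55% of the ChIP tags, against 0.191%, 0.209% and 0.224% of the input tags. The 64 members with recurring tags accounted for 0.501%, 0.691% and 0.993% of the ChIP tags, and the other 878 for 0.460%, 0.532% and 0.560%. With all tags counted, the rise of the total from Activin to SB was thus larger in the 64 blocks than in the rest. As shares of the distinct positions of a library, the blocks went from 0.047% in Activin to 0.069% in SB. The other 878 went from 0.459% to 0.581%, a larger rise in percentage points but a smaller one in proportion to the starting share.

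Input DNA was itself raised at many members. Over the width of a member, pooled input was a median of 2.55 times the genome mean, against 2.20 times for all merged regions, and it reached at least 3 times the mean in 339 members (36.0%) against 26.9% of all regions. Repeated sequence was rarely prominent at the scale of whole members, since at least 50% of the 32-base words recurred in the genome in 15 members (1.59%) against 1.34% of all regions. Of those 15 members, 9 belonged to the 64 with recurring tags.

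The duplicate share separated the 64 members from the rest. In each member the lowest duplicate share of the 3 ChIP libraries was taken, and it lay below 10% in 202 members, from 10% to 20% in 578 and from 20% to 30% in 87. It lay at 50% or above in 64 members, with 25 of them at 90% or above, and 4 and 7 members fell in the bins from 30% to 40% and from 40% to 50%. The value nearest above that limit was 51.1%, near Zfp608, and the value nearest below it was 48.9%, near Sorcs1. The limit was set after the values were seen. With limits of 40% and 70% the set had 71 and 53 members.

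**Figure D1:**
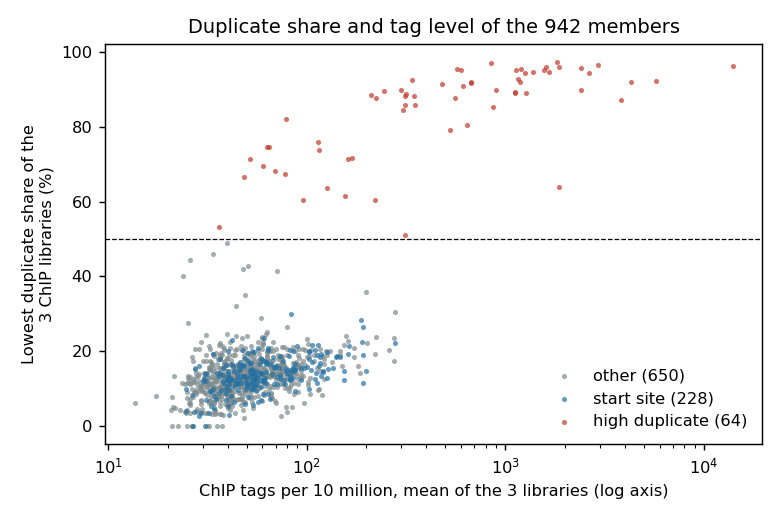
Each point is a member, with its mean ChIP tags per 10000000 over the 3 libraries on a log axis and, on the vertical axis, the lowest duplicate share of its 3 ChIP libraries in percent. The 64 members above the dashed line at 50% reach the highest tag levels, while start site members and other members lie together below it.

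In these 64 members nearly all ChIP tags were copies of a few positions. Median duplicate shares were 89.3%, 91.7% and 92.0%, against 17.6%, 21.8% and 21.2% in the input libraries of the same regions. The median ratio of ChIP to input was 22.4, 27.6 and 28.8 with all tags, and 3.14, 3.32 and 3.23 after duplicates were collapsed to a single tag. A short block offers few positions, so the second set of ratios is limited by its length.

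The blocks were short and often not unique. The stretch that held 95% of the ChIP tags had a median of 94.5 bp, with 34 of the 64 at most 100 bp long, whereas tags of the other members spread over a median of 914 bp of the window of 500 bp to each side of the highest pileup. In the assembly 31 blocks were found once at 90% identity and 33 more than once, with a maximum of 285 copies. Some blocks also resembled each other, since 35 shared at least 50 bp with another block and fell into 10 sets. No block lay at a start site, and 39 lay further than 10 kb from any protein-coding gene. In introns of such genes lay 12, and 46 overlapped no annotated gene of any kind. A 47 bp block near Lrig1 lay in an annotated ribosomal RNA gene, 5_8S_rRNA, and held 816, 1091 and 1040 ChIP tags against 20, 32 and 31 input tags, and it was chosen for this annotation after the values were seen.

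The member with most tags lay 88812 bp from the Axin2 start, outside any gene. It held 14495, 17215 and 17142 ChIP tags, with 244, 288 and 327 input tags, and its ChIP tags lay on only 535, 550 and 542 positions. Scaled by depth, Activin stood at 0.628 of SB (95% interval 0.614 to 0.642), and this and all later intervals are exact binomial intervals. The level was thus lowest in Activin and far above input in all 3 treatments, but the call was lost with a GC-based scaling (0.68) and also after collapsing duplicates (0.73).

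The block far from Samd9l, whose sequence is printed above, held 3090, 3538 and 2791 ChIP tags on 154 and 161 positions in Activin and DMSO and stood at 0.822 of SB in Activin, short of the 1.5-fold needed for a call. The blocks near Axin2 and Samd9l thus lay on different sides of the fold limit.

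Some blocks differed much more. A member in the Cdk8 intron held 4027, 7425 and 8150 tags in Activin, DMSO and SB, a ratio of Activin to SB of 0.367. A member in the Filip1l intron held 2062, 3941 and 8084 tags and had a ratio of 0.189. The member 26764 bp from the Rpp21 start held 1295, 3916 and 7297 tags, a ratio of 0.132. In all of these the libraries were ordered Activin, DMSO, SB from low to high. With 1 tag kept per position the ratios were 0.65 at Cdk8, 0.64 at Filip1l and 0.47 at Rpp21, closer to 1 but still called.

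At the highest input levels the ChIP libraries were not above input. The member near Pak3, whose block has 11 copies in the assembly, held 2451, 2031 and 1501 ChIP tags and 2698, 2974 and 2370 input tags, giving ratios of ChIP to input of 0.798, 0.674 and 0.683. Its input was 445 times the genome mean. The member near 1700012B15Rik, with 170 copies, had input at 411 times the mean and 1990, 1822 and 1755 ChIP tags against 2144, 2436 and 2578 input tags. Both were listed as peaks in all 3 treatments although in none of the 3 treatments was ChIP above its input.

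**Figure D2:**
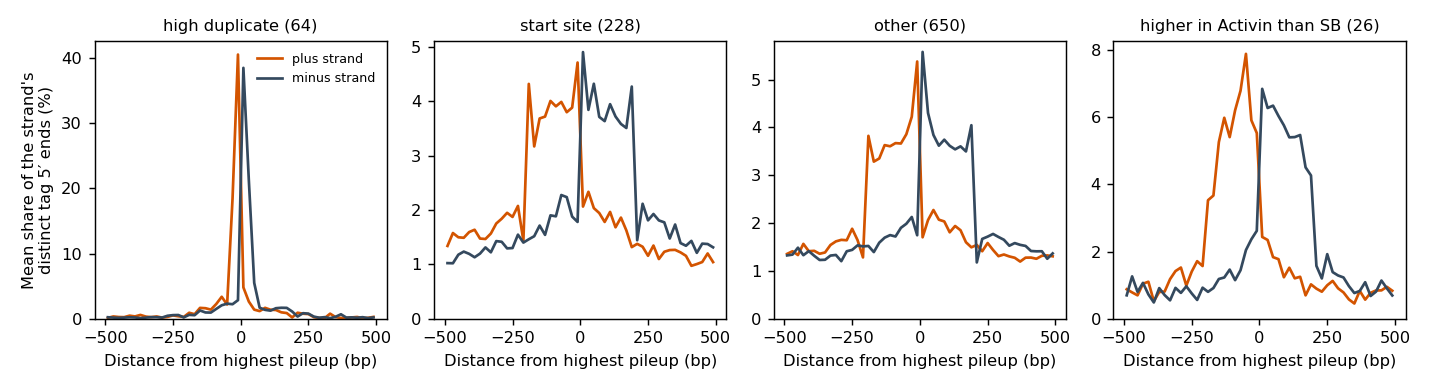
Mean share of distinct tag ends of each strand, in percent, by distance in bp from the highest pileup. Panels show the 64 high duplicate, 228 start site and 650 other members and the 26 called higher in Activin than in SB. Plus strand ends lie before the centre and minus strand ends after it in every panel, and the steps at 200 bp follow from centring on the pileup of tags extended to 200 bp.

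Where a protein sits on DNA, tags of the plus strand gather before it and tags of the minus strand after it. The offset between strands was taken as the mean distance of minus strand ends beyond plus strand ends, over distinct positions within 300 bp of the highest pileup. Centring on the pileup favours a positive offset, although the lowest value was -88.2 bp, so offsets can only be compared among members. Its median was 30.2 bp in the 64 high duplicate members, 69.8 bp in start site members and 60.2 bp in the other members. It was 112 bp in the 26 members called higher in Activin than in SB. In the profile the plus strand ends of these 26 members peaked 50 bp before the centre and their minus strand ends 10 bp after it, while in the other groups both strands peaked in the bin next to the centre.

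The remaining 878 members lay close to gene boundaries. The highest pileup lay within 500 bp of a start site in 202 of them (23.0%), against 12.98% of all merged regions, and within 5 kb past the end of a gene in 342 (39.0%), against 21.1%. Introns held 143 (16.3%), against 36.6% of all regions. Places further than 10 kb from any protein-coding gene held 66 (7.52%), against 13.9%. The class past the end of a gene was added after the values were seen, and a place was given to the first class that fitted, in the order of the bar chart.

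**Figure D3:**
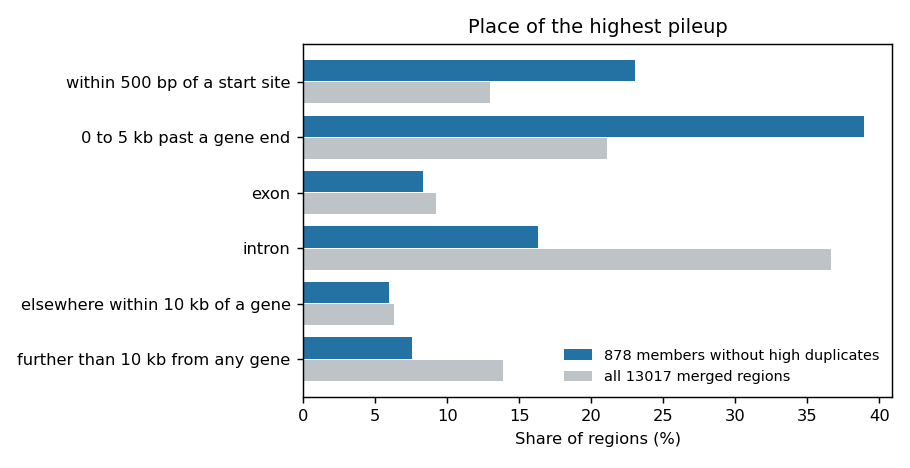
Share of regions in percent whose highest pileup lay in each kind of place, for the 878 members without high duplicates and for all 13017 merged regions. Places refer to protein-coding genes only. The bars for places past a gene end stand at 39.0% against 21.1% and those for introns at 16.3% against 36.6%.

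Past gene ends the pileup lay a median of 1094 bp beyond the last annotated base, with quartiles of 570 and 2106 bp, and 253 of the 342 lay within 2 kb. Over all merged regions in such places the median was 1527 bp. They were called less often than start site members, with no pair of libraries called in 271 of 342 (79.2%), against 57.5% of the start site members and 61.6% of all merged regions. Their median ratio of Activin to SB was 0.868, next to 0.968 for their input.

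The genes near members were described by lists of known function, drawn up with earlier results of these data in view and counted without a test. A member lay within 10 kb of 1209 of the 22208 protein-coding gene names (5.44%). It lay near 58 of 67 replication-dependent histone genes (86.6%), which sit in dense clusters and supply the histones of newly copied DNA. It also lay near 49 of 72 ribosomal protein genes (68.1%), which are highly transcribed in growing cells. The shares were 31.8% (7 of 22) for pluripotency genes, 31.3% (5 of 16) for targets of p53, 15.2% (5 of 33) for cell cycle and replication genes and 28.1% (9 of 32) for genes of the Nodal and Activin pathway. They were near that of all genes for BMP and Id genes (1 of 19), mesendoderm genes (1 of 16) and immediate-early genes (1 of 15), and no member lay near any of 11 trophectoderm genes.

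**Figure D4:**
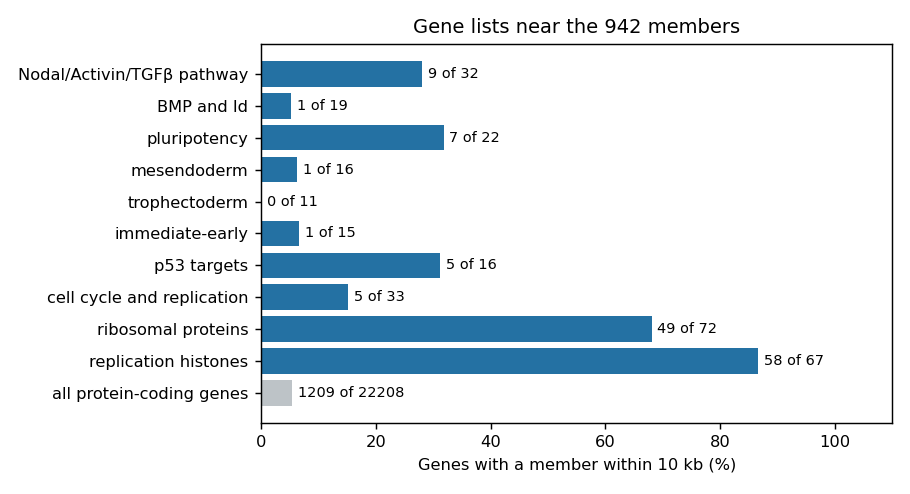
Share of the genes of each list, in percent, that had a member within 10 kb of the gene, with counts printed beside the bars. Replication histone genes (86.6%) and ribosomal protein genes (68.1%) stand far above the 5.44% of all protein-coding genes, shown as the last bar.

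The ribosomal protein genes had 74 members, 27 with a start site inside and 39 past the end of a ribosomal protein gene by a median of 1098 bp. Their members held medians of 68, 82 and 63 ChIP tags and 15, 20 and 17 input tags in Activin, DMSO and SB. A member 1266 bp past the end of Rpl3 held 235, 312 and 244 ChIP tags and 26, 29 and 26 input tags. A member 910 bp past the end of Rps19, printed above, held 205, 237 and 178 ChIP tags, with a ratio of Activin to SB of 0.855 (0.696 to 1.05, adjusted exact p = 0.30). Both were chosen after their values were seen, as the ribosomal protein members past a gene end with most tags among those not called in any pair.

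The histone genes had 43 members, 31 with a histone start site inside and up to 3 starts in a single member. Medians were 108, 139 and 117 ChIP tags against 11, 15 and 13 input tags. Hist1h1b, which encodes a linker histone, had 311, 320 and 340 ChIP tags and 15, 23 and 24 input tags, and was chosen after the values were seen. A median of 22.5% of the 32-base words of these members recurred in the genome, so tags may have been split between near-identical gene copies and the level of a single gene is uncertain.

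Pluripotency genes had 11 members, 6 of them past the end of a gene. Past the end of Sox2, by 883 bp, a member held 115, 121 and 88 ChIP tags and 16, 21 and 14 input tags, and its ratio of Activin to SB was 0.970 (0.728 to 1.30). Nanog, a core factor of the pluripotent state, had a member 1453 bp past its end with 71, 57 and 33 tags, a ratio of 1.60 (1.04 to 2.49) that did not pass the test (adjusted exact p = 0.11). Neither direction was called at these genes between Activin and SB. Fgf4 had a member 1089 bp past its end with 80, 143 and 58 tags, where Activin stood at 0.548 of DMSO (adjusted exact p = 0.0011) and SB at 0.535 of DMSO (adjusted exact p = 0.0019), so the DMSO library was the high one.

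Of the 11 pluripotency members, 2 were called lower in SB than in DMSO, against 8.99% of all regions, and 1 was called higher, against 7.75%. Zfp42 (Rex1), a marker of ground state cells, had 3 members, with 26, 24 and 24 tags, with 129, 187 and 104 tags at 2610 bp past its end, and with 48, 76 and 41 tags at 366 bp past its end, none of them called. Utf1, a chromatin factor of ES cells, had a member 632 bp past its end with 101, 129 and 65 tags, where SB stood at 0.665 of DMSO (adjusted exact p = 0.044), a call that was lost with 1 tag kept per position. The member in the Esrrb intron held 92, 98 and 81 tags and was not called. Otx2, the one mesendoderm gene, had a member 2496 bp past its end with 42, 56 and 37 tags, and Smad6, the one BMP gene, a start site member with 43, 41 and 37 tags, and neither was called.

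Targets of p53 had 9 members near Ccng1, Trp53inp1, Phlda3, Aen and Btg2, and 5 of the 9 lay past a gene end. The member 1315 bp past the end of Phlda3 held 70, 83 and 75 tags. The member 1141 bp past the end of Aen, a p53-induced nuclease, held 63, 80 and 52. Of the 9 only the one at Trp53inp1 with 73, 87 and 86 tags was called between Activin and SB, at a ratio of 0.630 (adjusted exact p = 0.026), and not with 1 tag kept per position.

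The 3 ChIP libraries were then compared over all merged regions by a two-sided exact binomial test on tags. A call needed an adjusted p under 0.05 (Benjamini-Hochberg over 13017 regions) together with a depth-scaled difference of at least 1.5-fold. The comparisons of Activin with DMSO and of SB with DMSO share the DMSO library. Between Activin and DMSO, 5 members (0.531%) were higher in Activin, against 4.44% of all regions, and 91 (9.66%) were lower, against 12.6%. Between SB and DMSO, 85 members (9.02%) were higher in SB, against 7.75% of all regions, and 39 (4.14%) were lower, against 8.99%. Between Activin and SB, 26 members (2.76%) were higher in Activin, against 6.69%, and 188 (19.96%) were lower, against 12.5%. Membership needed a listed peak in every treatment and favours even levels, so lower shares among members are partly set by that choice. Comparing the input libraries in the same way gave 30 calls over the 3 pairs, 0.0768% of 39051 comparisons. Of these 30 calls 11 fell on members, which were 942 of the 13017 regions.

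Counts of calls moved strongly with the scaling. When the libraries were scaled by their ratio at the same GC content outside the regions, 28 members were higher in SB than in DMSO and 40 lower, in place of 85 and 39. Over all 13017 merged regions, 528 were then higher in SB and 1067 lower, in place of 1009 and 1170. Between Activin and SB, 30 members were higher in Activin and 112 lower, in place of 26 and 188, and 107 of the 188 were among the 112. Over all merged regions, 751 were higher in Activin and 971 lower, in place of 871 and 1628. Of the 26 members higher in Activin, 25 kept their call. The median member stood at 0.853 in Activin against DMSO, 1.04 in SB against DMSO and 0.818 in Activin against SB, and at 0.842, 0.992 and 0.845 with GC scaling.

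No pair of libraries was called in 651 members (69.1%), and the highest treatment was within 1.5-fold of the lowest in 525 (55.7%), against 61.6% and 18.1% of all regions. Low tag numbers widen the spread of the second measure, and members had more tags than other regions. Presence in all 3 lists also favours even levels.

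Among the 126 members with at least 100 tags in every ChIP library, the steadiest lay over the Cd68 start and 961 bp past the end of Eif4a1. It held 159, 155 and 112 tags, a spread of 1.05-fold after scaling. The member 425 bp past the end of Eif1, a factor that selects the start codon, held 138, 127 and 100 tags and 11, 20 and 17 input tags, with a ratio of Activin to SB of 1.02 (0.786 to 1.34). The member 785 bp past the end of Bsg, named by the nearest start site Hcn2, held 157, 168 and 114 tags. The other 2 of the 5 steadiest were high duplicate blocks, near Osbpl1a with 171, 168 and 116 tags and near Igf2bp3 with 451, 456 and 310.

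**Figure D5:**
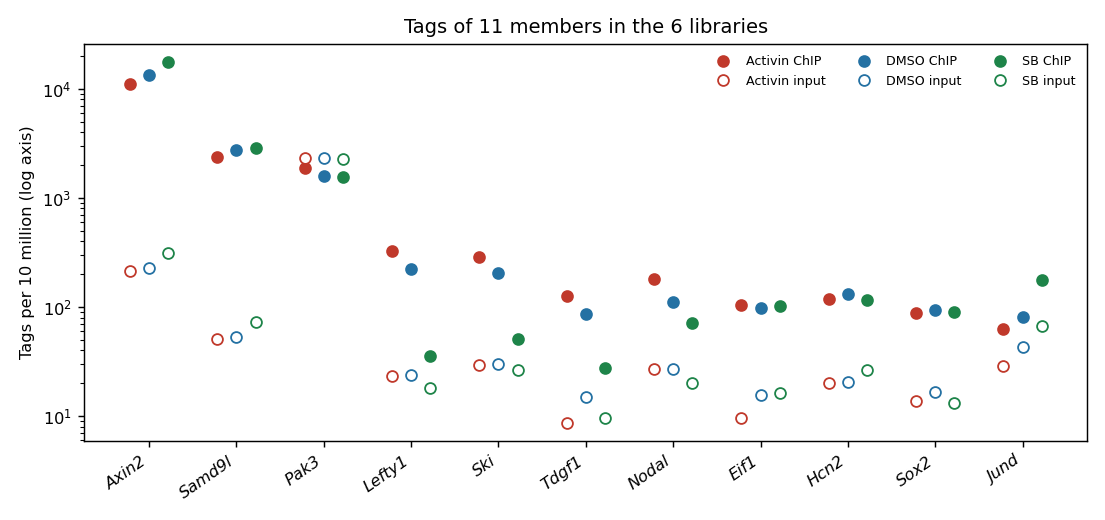
Tags per 10000000 on a log axis for 11 members, with ChIP libraries as filled points and input libraries as open points, in the order Activin, DMSO and SB. ChIP points of Lefty1, Ski, Tdgf1 and Nodal fall from Activin to SB, with input points that lie lower and differ less, those of Eif1, Hcn2 and Sox2 stay level, and at Jund both ChIP and input rise towards SB.

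Of the 26 members called higher in Activin than in SB, 10 lay in introns (38.5%, against 36.6% of all merged regions and 16.3% of the 878 members). Elsewhere within 10 kb of a gene lay 6, further away 6, past a gene end 3 and at a start site 1. Over the 26 the median ratio was 1.26 for Activin to DMSO, 0.537 for SB to DMSO and 2.40 for Activin to SB. For Activin input to SB input it was 1.11. None was a high duplicate block. Keeping 1 tag per position left 15 of the 26 called.

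Lefty1, an inhibitor secreted in response to Nodal, had a member over its start whose pileup lay 1111 bp before it (chr1:182863592-182865186). It held 425, 284 and 35 ChIP tags against 27, 30 and 19 input tags. The ratio of Activin to SB was 9.01 (6.38 to 13.1, adjusted exact p = 1.4e-60), and SB stood at 0.163 of DMSO (0.111 to 0.232, adjusted exact p = 2.7e-33). Activin was 1.47-fold above DMSO (1.26 to 1.71), short of the 1.5-fold needed. In SB it held 36 tags per 10000000, against 18 in the SB input.

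Ski, a co-repressor that binds Smads, had a member in its intron (chr4:154563472-154564764) with 378, 264 and 50 ChIP tags and 34, 38 and 28 input tags. The ratio of Activin to SB was 5.61 (4.17 to 7.69, adjusted exact p = 1.1e-41). Tdgf1, the co-receptor of Nodal, had a member 1439 bp before its start (chr9:110849691-110850892) with 164, 112 and 27 ChIP tags and 10, 19 and 10 input tags, a ratio of 4.51 (2.99 to 7.05, adjusted exact p = 6.3e-15). At both genes DMSO lay between Activin and SB. A member in an Immp2l intron, named by Lrrn3, held 119, 107 and 16 tags and had a ratio of 5.52 (3.26 to 9.97, adjusted exact p = 1.7e-12), with Activin and DMSO near each other at a ratio of 1.09 (0.832 to 1.43).

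Nodal, the ligand, had a member in its intron (chr10:60881611-60883533) with 236, 143 and 69 ChIP tags and 31, 34 and 21 input tags. Activin was 1.62-fold above DMSO (1.31 to 2.00, adjusted exact p = 0.00057) and 2.54-fold above SB (1.93 to 3.37, adjusted exact p = 5.6e-11), and SB stood at 0.637 of DMSO (adjusted exact p = 0.019). All 3 pairs were called here, and with 1 tag kept per position the call of SB against DMSO was lost. A further member 549 bp past the Nodal end held 97, 100 and 46 tags, with a ratio of Activin to SB of 1.56 (1.09 to 2.27) that did not pass (adjusted exact p = 0.055) and a ratio of SB to DMSO of 0.607 that did (adjusted exact p = 0.033) but was not called with 1 tag kept per position.

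The Tdgf1 locus showed the same split between its members. The member 725 bp past the Tdgf1 end held 100, 85 and 51 tags, a ratio of Activin to SB of 1.46 (1.03 to 2.08, adjusted exact p = 0.11). The member in its intron held 98, 90 and 52 tags, a ratio of 1.40 (0.989 to 2.00, adjusted exact p = 0.17). Neither was called, next to the 4.51-fold of the member before the start.

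Across the list of 32 Nodal and Activin pathway genes, 12 members lay near 9 genes. Of these 12, 4 were higher in Activin than in SB (6.69% of all regions), 6 were lower in SB than in DMSO (8.99%) and 1 was higher in Activin than in DMSO (4.44%), and none was called the other way. Their median ratio of Activin to SB was 1.43, against 0.818 over all members. The inhibitory Smad7 had a start site member with 65, 73 and 41 tags, which was not called, while with GC scaling SB stood at 0.42 of DMSO and Activin 2.57-fold above SB, both called. At Pmepa1, an inhibitor of Smad signaling, a member in the intron held 38, 63 and 23 tags and SB stood at 0.482 of DMSO (adjusted exact p = 0.021), which was not called with 1 tag kept per position. Members at Gdf3 (40, 43 and 33 tags) and Tgif1 (55, 79 and 44 tags) were not called in any pair. With GC scaling 7 of the 12 were higher in Activin than in SB and the median ratio was 1.85.

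Other members of the 26 lay at genes outside the list. Lgr4, a receptor for R-spondins, had the member within 500 bp of its start, with 93, 70 and 22 tags and a ratio of 3.14 (1.95 to 5.25, adjusted exact p = 8.2e-06). A member 563 bp past the end of Egln3, an oxygen-dependent prolyl hydroxylase, held 123, 69 and 32 tags, at 1.75-fold over DMSO (adjusted exact p = 0.0053) and 2.85-fold over SB (adjusted exact p = 1.0e-06). A member 812908 bp from the Cps1 start held 60, 28 and 12 tags, 2.10-fold over DMSO (adjusted exact p = 0.013) and 3.71-fold over SB (adjusted exact p = 0.00015). With 1 tag kept per position both lost the call over DMSO and kept the call over SB. These, the Nodal intron member and one at the Brd2 start are among the 5 members higher in Activin than in DMSO. The Brd2 member held 79, 47 and 64 tags, so that DMSO was its low library, and its call over DMSO was lost with GC scaling and with 1 tag kept per position.

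Weaker members of the 26 included one in an intron of L1td1, which encodes an RNA-binding protein of pluripotent cells. It held 146, 148 and 65 tags, and the ratio of Activin to SB was 1.67 (1.24 to 2.27, adjusted exact p = 0.0060), a call that was lost with 1 tag kept per position. An intron of Myo10, a myosin of filopodia, had 140, 132 and 55 tags (1.89, 1.37 to 2.63, adjusted exact p = 0.0010). At both, Activin and DMSO were level and SB was low. The member 25384 bp from the Aasdhppt start, with 48, 49 and 17 tags, was the one of the 26 whose call was lost with GC scaling, and it was also lost with 1 tag kept per position.

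Motifs were looked up within 100 bp of the highest pileup, on both strands. CAGAC or its complement was found in 23 of the 26 members higher in Activin (88.5%), against 45.2% of all members and 45.5% of all merged regions. TGTNNATT was found in 10 of the 26 (38.5%), against 8.60% of all members and 11.9% of all regions. The shorter CAGA, which is contained in CAGAC, was found in 90.6% of members and 93.0% of all regions. As a whole the members thus held CAGAC no more often than other regions. The motif count at the 26 is a description, and no match says only that these letters are absent from the window.

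The 188 members lower in Activin than in SB included 35 of the high duplicate blocks and 80 start site members. Leaving the blocks aside, the 153 others had a median ratio of Activin to SB of 0.533, and their input libraries went the same way with a median of 0.694, lower in Activin in 124 of the 153. Their median GC content was 56.4%, against 49.0% over all members. The GC box of Sp1, GGGCGG, was found in 26.8% of them, against 27.2% of start site members and 8.43% of all regions. With GC scaling 75 of the 153 kept their call and the median ratio was 0.624. The part of input and GC content in this difference was not tested beyond that scaling.

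Outside the high duplicate blocks, the shift was larger in start site members than in the other 650. Their median ratio of SB to DMSO was 1.246, and it was 1.03 with GC scaling, where 9 members were higher in SB and 5 lower in place of 45 and 2. For Activin to SB the median was 0.680, and 0.809 with GC scaling, against 0.866 and 0.879 in the other 650. Their input had a median Activin to SB ratio of 0.810.

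At some start sites the call was lost with GC scaling. Jund, an AP-1 factor whose start is shared with the gene model Gm11175, had 82, 105 and 171 ChIP tags and 33, 55 and 70 input tags, with a GC content of 68.4%. SB stood 2.15-fold above DMSO (1.68 to 2.77, adjusted exact p = 7.9e-08), and 1.21-fold with GC scaling, where it was not called. Klf10, a factor induced by TGFβ, had 50, 81 and 98 tags and a ratio of Activin to SB of 0.379 (0.264 to 0.538, adjusted exact p = 7.7e-07), and its call was also lost with GC scaling, at 0.630.

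Other start sites kept their call with GC scaling. Hnrnpu, which encodes a nuclear RNA-binding protein, had 28, 57 and 88 tags and 5, 20 and 28 input tags, a ratio of Activin to SB of 0.236 (0.149 to 0.365, adjusted exact p = 8.1e-11) and of 0.290 with GC scaling. Eef1a1, a translation elongation factor, had 53, 95 and 131 tags and 9, 24 and 28 input tags, a ratio of 0.300 (0.214 to 0.416, adjusted exact p = 1.1e-12) and of 0.350 with GC scaling. At both the input libraries rose from Activin to SB as well, by a similar or larger factor than ChIP, on few input tags. The call compared ChIP libraries only, and a difference beyond that of input was not tested. Jund, Klf10, Hnrnpu and Eef1a1 were among the 6 start site members with the lowest ratios and were chosen after their values were seen.

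Neither large family near the members moved towards Activin. Of the 74 ribosomal protein members 0 were higher and 9 lower in Activin than in SB, a share of lower calls near the 12.5% of all regions, with a median ratio of 0.810 against 0.818 over all members, and with GC scaling 0 were higher and 4 lower at a median of 0.816. Of the 43 histone members 0 were higher and 14 lower, with a median of 0.720. That share of lower calls lay above the 12.5% of all regions. A start site was held by 31 of the 43, and of the 228 start site members 80 were called lower. With GC scaling 0 histone members were higher and 13 lower at a median of 0.734. Called lower with that scaling were 971 of 13017 regions and 32 of the 228 start site members. Input of the ribosomal and histone members had median ratios of 0.911 and 0.835.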

How the data were processed

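pSmad2 ChIP and input DNA of 3 treatments were sequenced on a Genome Analyzer II. The authors deposited aligned tags of 35 bp (chromosome, start, end and strand, with no further value) and, for each treatment, a peak list that pairs positions with tag counts, their own values from MACS with a p cutoff of 1e-05 and an extension of tags to 200 bp. For the aligner and for tags with several matches the settings were not given in the sources used here. Notes of the submitters name mm9, and tags were checked against the chromosome lengths of that assembly.

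Intervals were set and merged as described in the report. Tag counts were taken from the deposited tags with all tags kept, at the middle of each tag extended to 200 bp, and scaled by library totals of 9757735 to 13148559 tags. Libraries were compared by the exact binomial test given these totals, with Benjamini-Hochberg adjustment over 13017 regions. The same test was also run on simulated counts, which held no recurring duplicate tags. All intervals are Clopper-Pearson intervals at 95% and cover counting error only, and duplicates from PCR are not independent molecules. Genes were those of GENCODE for mm9, and sequences were read from the same assembly. Repeats were counted as 16-base and 32-base words of the genome, and block copies by BLAST+ 2.17.0. Python 3.11.15, numpy 2.4.6, pandas 2.3.3, scipy 1.17.1 and matplotlib 3.10.9 were used.

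The members and all gene lists were chosen with earlier results of these data known. Named members were the 8 with most ChIP tags, the 5 called members with the highest and the 5 with the lowest ratio of Activin to SB, the 5 steadiest with at least 100 tags in every ChIP library, the 5 with the highest input, those within 10 kb of genes of the pathway, pluripotency, lineage, immediate-early and p53 lists, and those at the limit of the rule. Members named outside this rule are said to be chosen after their values were seen, and the members higher in Activin that are named beyond it were chosen in the same way. The planned classes were high input (339 members), start site (116) and other (487), in that order. The high duplicate class was added after the values were seen and is used in their place. Alternatives covered duplicate tags, scaling, thresholds and the intervals. Results at some genes and regions are not reported here. Expression arrays and other assays were not analysed here.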

Additional observations from a re-analysis of the deposited data

How the results depend on the processing

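Of 75 alternatives, 41 left a count within 1.5 times its value or a measure within its spread, and scaling by tags outside the regions moved no count beyond that. Keeping 1 tag per position and strand gave 2 members higher and 22 lower in Activin than in DMSO, 23 higher and 14 lower in SB than in DMSO, 15 higher and 118 lower in Activin than in SB, and 5 input calls. With the high duplicate members also left out, an alternative chosen after seeing the data, these counts were 2, 22, 23, 14, 15 and 106. Scaling by GC content gave 28 members higher in SB than in DMSO and 112 lower in Activin than in SB. A fold limit below 1.5 gave 9 members higher in Activin than in DMSO. A fold of 2 gave 2 higher and 25 lower in Activin than in DMSO, 15 higher and 16 lower in SB than in DMSO, and 63 lower in Activin than in SB. An adjusted p under 0.001 gave 2 and 18, 27 and 9, and 13 and 86 for the same 3 comparisons, and 5 input calls. The cause of these moves was not tested.

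Requiring the listed positions themselves to lie within 200 bp left 100 members. The intervals ran to both sides of a listed position in Activin but only before it in DMSO and SB, by up to 1109 bp. Listed positions of a shared peak can thus lie further apart than 200 bp, and this count cannot show how many members coincide. High input was found in 685 members at 2 times the genome mean and in 55 at 5 times. The median share of recurring 16-base words was 6.81% at a minimum of 20 occurrences, against 3.68% at 50. CAGAC was found within 50 bp of the pileup in 25.7% of members. Within 50 kb, 2417 genes had a member. No paired analysis was possible because each treatment has 1 ChIP and 1 input library, and for the same reason no replicate could be left out. At a median of 53 to 69 ChIP tags a member, differences near 1.5-fold are at the edge of what a call can reach.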
